A study of Mus musculus with 11 samples.

Results

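Oligodendrocyte lineage genes were examined in RNA sequenced from mPFC CRF1+ neurons, that is, neurons of the medial prefrontal cortex (mPFC) that express the corticotropin-releasing factor type 1 receptor (CRF1, gene Crhr1). Widely used markers of the lineage were taken by name, 9 of the 53465 genes in the count tables. The precursor genes were Olig1, Olig2, Sox10 and Cspg4 (4 genes) and the myelin genes were Mbp, Mog, Mag, Mobp and Cnp (5 genes). All mice were adult male CRF1:GFP reporters, a line in which green fluorescent protein marks Crhr1-expressing cells. The 6 naïve mice received pyrazole, an alcohol dehydrogenase inhibitor, and breathed air in the vapor chambers. The 5 withdrawn mice received pyrazole with ethanol, breathed ethanol vapor intermittently over several weeks (chronic intermittent ethanol, CIE), and were taken days into forced abstinence. Each library came from the mPFC of a single mouse, dissociated with papain, passed over a density gradient prepared for neurons and sorted for live GFP-positive cells, and its cDNA was amplified from picogram amounts of RNA. For 3 of the withdrawn mice (withdrawn mice 3, 4 and 5) one further label reads control, against their title and treatment, and the series' design text gives 5 control and 6 ethanol mice in place of the 6 and 5 used here. Group membership therefore carries some doubt, and the main results are also given without these 3 mice.

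Oligodendrocytes wrap axons in myelin, the insulating membrane that speeds conduction. They arise from precursor cells (OPCs, also called NG2 cells) that persist in the adult cortex. Olig1, Olig2 and Sox10 are transcription factors that specify the lineage and remain expressed through it, and Cspg4 encodes the NG2 proteoglycan of the precursor surface, which pericytes of small vessels also carry. Mbp, Mobp and Cnp encode myelin basic protein, another small basic protein of compact myelin, and the enzyme of non-compact myelin, whereas Mag and Mog encode adhesion and surface proteins of the inner and outermost myelin layers. The Mbp locus also gives rise to golli transcripts, which neurons make, and reads counted per gene do not tell these from the myelin transcripts.

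In the GRCm38 assembly, Olig1 (ENSMUSG00000046160, chr16:91269772-91271933, plus strand) lies on chromosome 16 near Olig2 (ENSMUSG00000039830, chr16:91225457-91228677, plus strand). Sox10 (ENSMUSG00000033006) is at chr15:79154908-79165240 on the minus strand and Cspg4 (ENSMUSG00000032911) at chr9:56865033-56899870 on the plus strand. Mobp (ENSMUSG00000032517) is at chr9:120149707-120181484 on the plus strand, Cnp at chr11:100574904-100591729 on the plus strand, Mag (ENSMUSG00000036634) at chr7:30899176-30914873 on the minus strand, Mog (ENSMUSG00000076439) at chr17:37010743-37023398 on the minus strand and the Mbp identifier is ENSMUSG00000041607. Exons of Olig1 share 157 bases with Gm15966 on the opposite strand, exons of Cnp share 154 bases with Dnajc7 on the opposite strand, and exons of Mobp share 79 bases with Gm38642 on the same strand. The strand setting of the counting was not given, so reads in the Olig1 and Cnp stretches cannot be assigned to either gene with certainty. In the Mobp stretch both genes lie on the same strand, so no strand setting would tell their reads apart. The other 6 genes shared no exonic base with an annotated gene.

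The start regions of 4 genes are printed because they are the members whose counts frame the result, Mobp and Cnp as 2 of the 3 that were counted in every mouse, and Mog and Olig2 as 2 that were close to absent. These 4 were chosen after the counts were seen. The sequences are the bases before the annotated gene start, 5′ to 3′ on the gene's strand, from RefSeq's table for GRCm38.p6, in which 6 of the 9 genes had an entry and Olig1, Sox10 and Mbp had none. Capitals mark matches on either strand to the SOX-type letters ACAAAG or ACAATG and to the E-box CANNTG, the kind of site that basic helix-loop-helix factors such as OLIG1 and OLIG2 bind. No match of one motif overlapped a match of the other.
Mobp, chr9:120149492-120149706, plus strand: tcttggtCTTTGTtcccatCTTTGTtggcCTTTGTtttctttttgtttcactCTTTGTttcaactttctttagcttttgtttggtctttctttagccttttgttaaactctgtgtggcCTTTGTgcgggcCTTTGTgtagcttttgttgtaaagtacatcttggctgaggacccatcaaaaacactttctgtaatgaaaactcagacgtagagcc
Cnp, chr11:100574689-100574903, plus strand: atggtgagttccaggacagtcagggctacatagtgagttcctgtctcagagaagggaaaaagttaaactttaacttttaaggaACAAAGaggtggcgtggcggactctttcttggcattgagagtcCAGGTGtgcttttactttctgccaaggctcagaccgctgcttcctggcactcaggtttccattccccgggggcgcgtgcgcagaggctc
Mog, chr17:37023399-37023648, minus strand: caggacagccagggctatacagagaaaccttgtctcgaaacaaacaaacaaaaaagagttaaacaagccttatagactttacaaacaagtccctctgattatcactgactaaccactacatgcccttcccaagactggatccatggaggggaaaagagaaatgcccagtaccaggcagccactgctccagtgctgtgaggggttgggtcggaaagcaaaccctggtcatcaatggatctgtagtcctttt
Olig2, chr16:91225300-91225456, plus strand: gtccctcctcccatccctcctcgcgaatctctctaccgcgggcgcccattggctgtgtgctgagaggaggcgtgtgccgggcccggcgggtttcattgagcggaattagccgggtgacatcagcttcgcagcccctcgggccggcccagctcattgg
The Mobp window of 215 bases held 6 SOX-type matches and no E-box. Of the 32544 mouse start regions trimmed to the same length, 22.4% held at least 1 SOX-type match and 61.4% held an E-box. The share with at least as many SOX-type matches as Mobp was 0.00307%, which is the Mobp region alone. The 6 matches stand in a T-rich repeat in which the letters CTTTGT recur. The Cnp window of the same length held 1 match of each kind. The Mog window of 250 bases held neither, where 25.0% of start regions of that length held a SOX-type match and 66.2% an E-box. The Olig2 window of 157 bases held neither, against 16.7% and 50.8%. These matches describe letters only.

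Counts on genes ran from 7351567 to 22244869 per mouse, and a count of 3, taken as the floor, corresponded to 0.140 to 0.369 CPM (the share of a library's gene counts that a gene takes, scaled by TMM normalization). Neuron markers were abundant in every library, summing over 8 genes to 9459 to 11566 CPM in naïve and 5903 to 9779 CPM in withdrawn mice, and Crhr1 itself stood at 92.7 ± 21.5 CPM in naïve and 89.3 ± 33.6 CPM in withdrawn mice (SD, n = 6 and 5). Naïve mouse 5 had the fewest genes with a count (15585) and withdrawn mouse 4 the most (31830), and the share of reads outside exons was 5.77% and 48.1% in these mice.

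The precursor genes were scarce in the sorted cells. Olig2 and Sox10, the core transcription factors of the lineage, were at or under 3 counts in most mice, and so was Olig1. Cspg4 had more than 3 counts in 9 of 11 mice. Olig1 and Sox10 each had at least 1 count in 6 of 11. Olig1 and Cspg4 did not pass the edgeR test of the difference between naïve and withdrawn mice, and Olig2 and Sox10 were too scarce for it.

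Olig2 gave 0 to 1 counts in each naïve mouse and 0, 0, 0, 1 and 4 counts in withdrawn mice 1 to 5, so that 10 of 11 mice were at or under the floor. Its level was 0.0432 CPM in naïve and 0.0812 CPM in withdrawn mice on average, both under the floor, and no fold is given. Sox10, the factor that turns on myelin genes, gave 0 to 2 counts in naïve mice and 1, 0, 1, 7 and 19 counts in withdrawn mice 1 to 5. The withdrawn values were 0.0720, 0, 0.0467, 0.861 and 1.34 CPM, against a naïve maximum under 3 counts. Only withdrawn mice 4 and 5 lay above the floor, and both are among the mice with a conflicting label, without which Sox10 did not pass 1 count in any withdrawn mouse. The difference in mean log2 CPM had an exact two-sided permutation p of 0.0866 over all splits of the 11 mice into 5 and 6, for which the smallest possible p is 0.00216. Without withdrawn mouse 2 the same test gave 0.0238, and without the 3 mice with a conflicting label it gave 0.821, neither adjusted for the number of genes tested.

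Olig1 appeared in some mice of either group and was missing from others. Naïve mice ranged from 0 CPM in 3 mice to 2.64 CPM, with a median of 0.0937 CPM, and withdrawn mice 1 to 5 had 0, 12.2, 0, 0.984 and 2.76 CPM. Withdrawn mouse 2 alone held 76.5% of the Olig1 signal summed over withdrawn mice, and the groups overlapped. The log2 fold change, withdrawn over naïve, was 1.94 (SE 1.68, 95% interval -1.68 to 5.56, adjusted p = 0.878, edgeR quasi-likelihood test), and without withdrawn mouse 2 it was 0.19. Olig1 and Olig2 are neighbours that the lineage expresses together, yet the mouse with the most Olig1 (109 counts) had 0 counts of Olig2. The next highest, withdrawn mouse 5 and naïve mouse 2, had 4 and 0 counts of Olig2.

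Cspg4 was the most regularly detected precursor gene. Naïve mice ranged from 0 to 8.06 CPM with a median of 4.50 CPM, and withdrawn mice 1 to 5 had 3.60, 0, 4.81, 8.48 and 4.10 CPM. The means were 4.15 ± 3.02 and 4.20 ± 3.03 CPM (SD, n = 6 and 5), with a log2 fold change of 0.02 (SE 1.11, 95% interval -2.37 to 2.42, adjusted p = 0.998), and its sign turned when single mice were left out. The mice without Cspg4 were naïve mouse 5 and withdrawn mouse 2, at 0 counts each, and Pdgfra, which encodes the growth factor receptor that defines OPCs and also marks fibroblasts, was at 0 counts in the same 2 mice. The summed level of 8 pericyte markers was 0.677 CPM in naïve mouse 5, the lowest of all mice, and 12.4 CPM in withdrawn mouse 2, the lowest of its group, and ran up to 171 CPM in naïve and 209 CPM in withdrawn mice. Naïve mice 3 and 4 had still lower sums than withdrawn mouse 2, at 10.9 and 9.96 CPM, and naïve mouse 3 had the highest naïve Cspg4. The part of pericytes in the Cspg4 values was not tested.

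The myelin genes fell into a detected and a near-absent group. Mbp, Mobp and Cnp had more than 3 counts in all 11 mice, as 66.9% of the 17093 genes that passed the low-count filter did, whereas Mag did so in 6 mice and Mog in 5. All of the detected trio were lower on average in withdrawn mice, by amounts within the spread between mice.

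Mbp was the most abundant lineage gene. Naïve mice ranged from 102 to 180 CPM with a median of 128 CPM, and withdrawn mice 1 to 5 had 91.3, 59.1, 170, 69.0 and 127 CPM. The means were 134 ± 33.2 CPM and 103 ± 45.7 CPM (SD, n = 6 and 5). Withdrawn mice 1, 2 and 4 lay below every naïve mouse and the other two lay inside the naïve range. The log2 fold change was -0.37 (SE 0.27, 95% interval -0.95 to 0.21, adjusted p = 0.852). The exact permutation p was 0.173. Without the 3 mice with a conflicting label the fold change was -0.88 (adjusted p = 0.757), the exact permutation p was 0.0357, the smallest that 2 against 6 mice allow. Without withdrawn mouse 3, the highest of its group, the fold change was -0.64 (adjusted p = 0.635).

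Mobp ranged from 5.91 to 30.5 CPM in naïve mice with a median of 28.8 CPM, and withdrawn mice 1 to 5 had 9.94, 30.8, 22.3, 12.3 and 25.5 CPM. Naïve mouse 1, at 55 counts, was the lowest of all mice, and the highest was withdrawn mouse 2. The log2 fold change was -0.21 (SE 0.43, 95% interval -1.14 to 0.72, adjusted p = 0.963). Cnp, whose product is a phosphodiesterase of the myelin sheath, ranged from 12.1 to 26.1 CPM in naïve mice with a median of 17.6 CPM, and withdrawn mice 1 to 5 had 11.7, 9.74, 19.6, 21.9 and 11.7 CPM. Its log2 fold change was -0.31 (SE 0.35, 95% interval -1.06 to 0.44, adjusted p = 0.914), and 3 withdrawn mice lay below the lowest naïve mouse. From mouse to mouse the 3 genes differed in their order. Withdrawn mouse 2 had the lowest Mbp and Cnp and the highest Mobp, and withdrawn mouse 4 had the highest Cnp of its group and less Mobp than the other withdrawn mice except mouse 1.

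Mog, a late marker of mature myelin, gave 0 to 59 counts in naïve mice and 4, 12, 4, 1 and 3 counts in withdrawn mice 1 to 5. Naïve mouse 4, at 3.44 CPM, was the only mouse of either group above 2 CPM, and the medians were 0.176 CPM in naïve and 0.212 CPM in withdrawn mice. Mag, the adhesion protein that faces the axon, was at 0 in 2 mice of each group and highest in withdrawn mouse 2 at 3.02 CPM, with withdrawn mice 1 to 5 at 0, 3.02, 0.327, 2.58 and 0 CPM and naïve mice between 0 and 2.34 CPM with a median of 0.518 CPM. The log2 fold change of Mag was 0.68 (SE 1.47, 95% interval -2.47 to 3.83, adjusted p = 0.966), and -0.06 without withdrawn mouse 2. Naïve mouse 4 led for Mog and withdrawn mouse 2 for Mag, and withdrawn mouse 2 was also second of all mice for Mog at 1.34 CPM. Both genes are far below Mbp, of which every mouse had 528 counts or more.

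**Figure D1:**
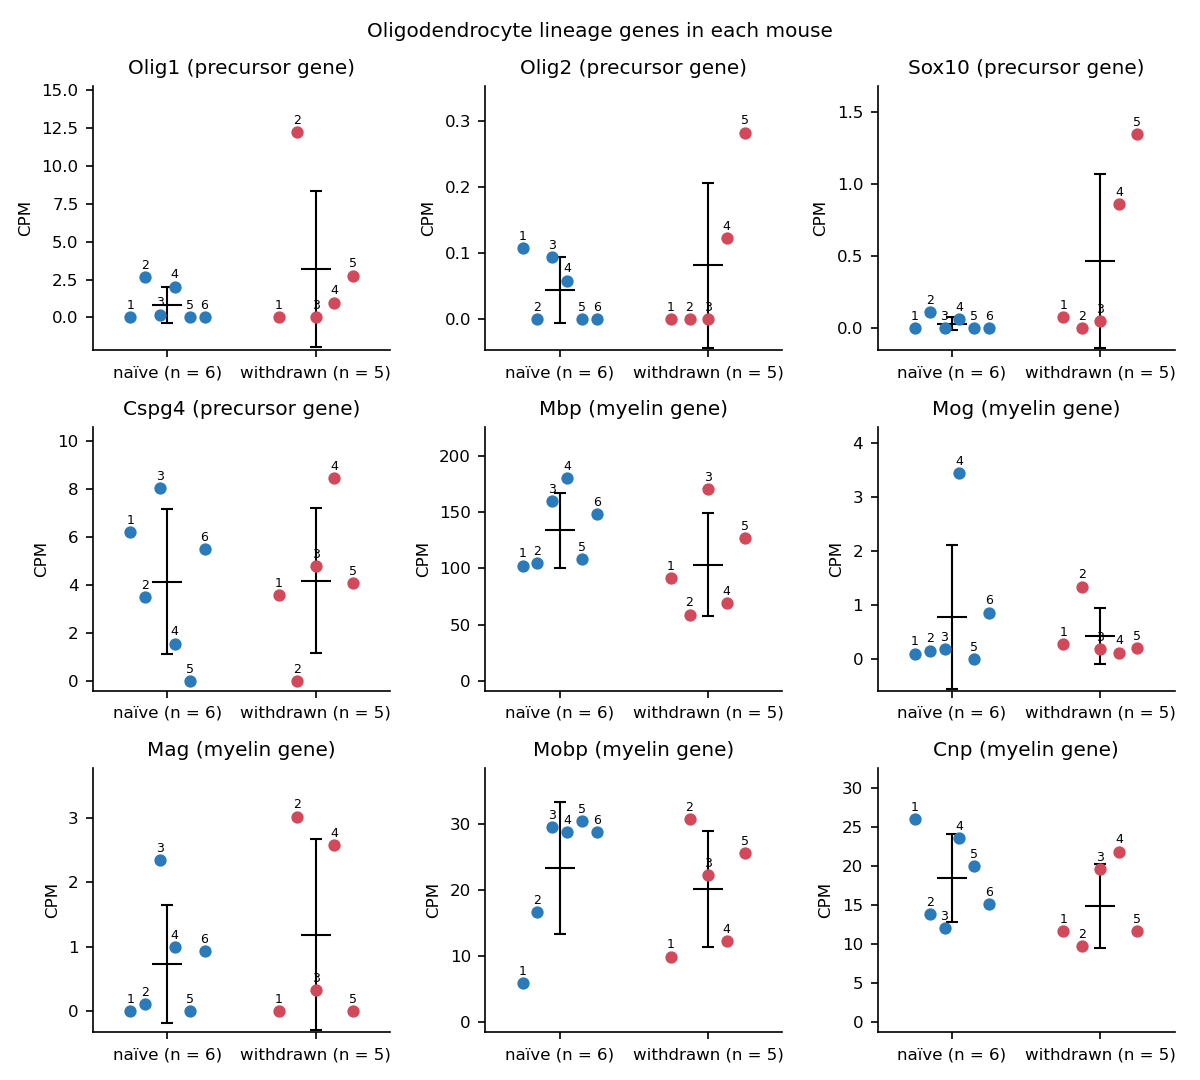
Level of each of the 9 lineage genes in every mouse (y axis, CPM on a linear scale of its own in each panel; x axis, naïve and withdrawn mice), with 1 point per mouse labelled by its number, a long bar for the mean and whiskers for the SD. Mbp, Mobp and Cnp are above 0 in all 11 mice, the other genes are at 0 in at least 1 mouse, and the groups overlap in every panel.

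Per kilobase of exon, on which levels of different genes can be compared, the naïve mice gave the order Mbp (15.8 CPM per kb), Cnp (5.08), Mobp (3.41), Mog (0.466), Olig1 (0.375), Cspg4 (0.347), Mag (0.179), Olig2 (0.0171) and Sox10 (0.00918). Mbp exceeded Cnp in 6 of 6 naïve mice. The lowest Mbp (12.1 CPM per kb) lay above the highest Cnp (7.17), so this step is larger than the spread between mice. Mobp exceeded Mog within each of the 6 naïve mice. Their ranges over these mice (0.862 to 4.45 and 0 to 2.02 CPM per kb) overlapped. Cnp exceeded Mobp in 4 of 6, Mog exceeded Olig1 in 4, Olig1 exceeded Cspg4 in 2, Cspg4 exceeded Mag in 4, Mag exceeded Olig2 in 4 and Olig2 exceeded Sox10 in 3, and these neighbours did not differ beyond their spread. The glutamatergic marker Slc17a7 stood at 266 CPM per kb and the synaptic gene Snap25 at 833 CPM per kb in the same mice, far above every lineage gene.

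**Figure D2:**
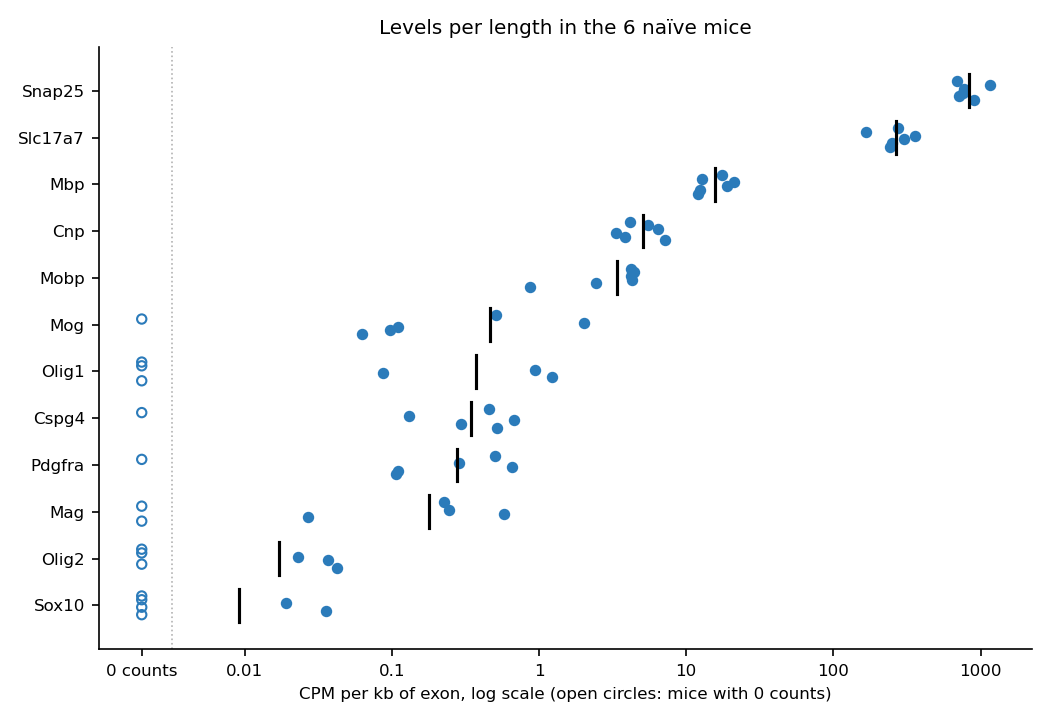
Level per kilobase of exon (x axis, CPM per kb, log scale) in the 6 naïve mice for the 9 lineage genes and Pdgfra, Slc17a7 and Snap25 (y axis, ordered by mean), with 1 point per mouse, open circles for mice with 0 counts and a bar for the mean. Mbp is the highest lineage gene at 15.8 CPM per kb, Olig2 and Sox10 are lowest at 0.0171 and 0.00918, and all lineage genes lie below Slc17a7 at 266.

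Across the comparison of withdrawn with naïve mice, 0 of the 6 tested lineage genes (Olig1, Cspg4, Mbp, Mag, Mobp and Cnp) were called, where 0.00585% of all 17093 tested genes were (called meaning past an edgeR adjusted p of 0.05 and changed by more than 0.6 on the log2 scale). Olig2, Sox10 and Mog did not pass the low-count filter and have no edgeR value. At an unadjusted p under 0.05, 0 of the 6 passed, against 7.22% of all tested genes. DESeq2, which called 1.66% of the genes it tested, called none of the lineage genes. Its unadjusted p (Wald test) was under 0.05 for Sox10 alone, with a log2 fold change of 3.81 (SE 1.83) and no adjusted p from the tool. None of the 9 genes had naïve and withdrawn values that did not overlap, against 0.948% of the tested genes. The median log2 fold change was 0.98 over the 2 tested precursor genes and -0.26 over the 4 tested myelin genes, beside 0.02 over all tested genes. The intervals were wide for the scarce genes. That of Mbp excluded a rise beyond 0.21 and a fall beyond 0.95 on the log2 scale, whereas that of Olig1 spanned -1.68 to 5.56. Without the 3 mice with a conflicting label the Mbp interval was -1.56 to -0.19. In bulk RNA from a sort, fewer oligodendrocytes and less RNA per oligodendrocyte cannot be told apart. For Mbp, neither can be told from a change in the golli transcripts that neurons make.

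**Figure D3:**
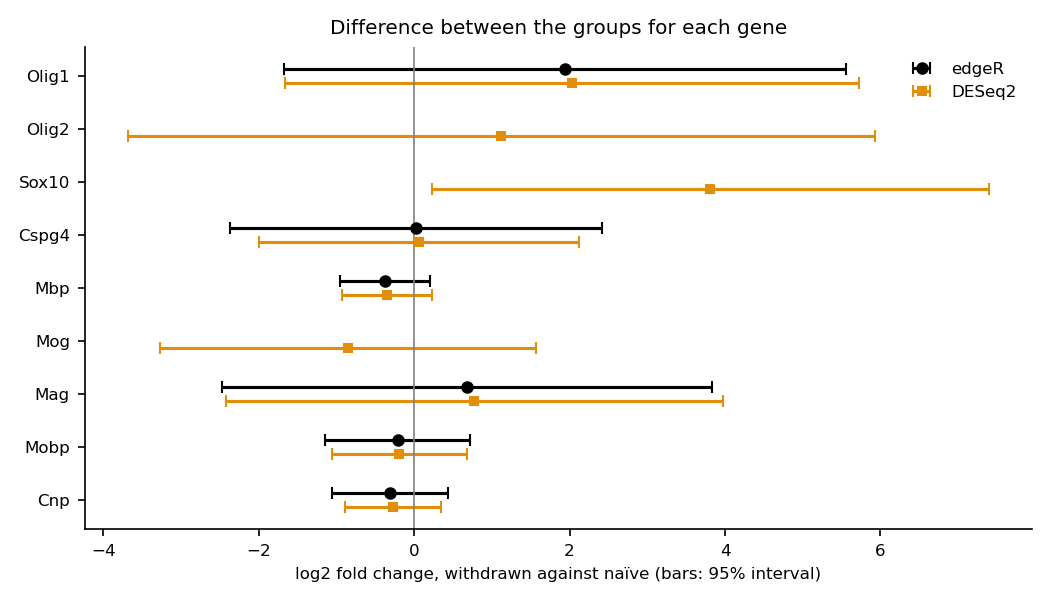
Log2 fold change of withdrawn over naïve mice (x axis) with its 95% interval for each lineage gene (y axis), by edgeR (circles, 6 genes that passed the low-count filter) and by DESeq2 (squares, all 9). Every edgeR interval includes 0, from Mbp (-0.95 to 0.21) to Olig1 (-1.68 to 5.56), and of the DESeq2 intervals that of Sox10 alone lies above 0.

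Longer lists of lineage genes also gave 0 calls by edgeR, with single genes that stood apart. Of 16 precursor and committed precursor genes, 12 were tested, 0 were called, and 2 had an unadjusted p under 0.05, both higher in withdrawn mice (Bmp4 and Traf4), against 5% of all tested genes in that direction. Of 16 lineage regulators, 12 were tested and 1 (Tcf7l2) was higher at that threshold. Of 30 further myelin and mature oligodendrocyte genes, 19 were tested, 2 were higher (Cldn11 and Apod) and 1 lower (Gal3st1, a sulfotransferase that makes the myelin lipid sulfatide, log2 fold change -1.44), against 2.22% of all genes in the lower direction. Traf4, Tcf7l2, Apod and Gal3st1 are given because of this threshold, a choice made with the values in view. The medians of the 3 lists were 0.65, 0.18 and 0.03, and leaving out each mouse in turn moved them over 0.12 to 1.14, -0.27 to 0.37 and -0.11 to 0.099. Without the 3 mice with a conflicting label the third was -0.69. The summed level of the 16 precursor and committed precursor genes was 49.8 to 147 CPM in naïve mice and 149, 155, 156, 231 and 189 CPM in withdrawn mice 1 to 5, so that the groups did not overlap. Without Bmp4 they did, at 49.8 to 147 CPM and 107, 149, 122, 171 and 169 CPM, a comparison chosen with the values in view. Tnr, which neurons also express, gave 57.0 CPM of the mean sum of 110 CPM in naïve mice. The most abundant genes of these lists were ones that neurons also express, namely Tnr, Lingo1 and Tppp, at 57.0 ± 20.4, 548 ± 150 and 538 ± 125 CPM in naïve mice (SD, n = 6). Lingo1 had a log2 fold change of -0.26 (SE 0.24) and Tppp of 0.06 (SE 0.19). The next most abundant were Sox8 (0.01, SE 0.41) of the first list, Id2 (0.18, SE 0.26) and Sirt2 (-0.40, SE 0.22) of the second, and Enpp2 (0.03, SE 0.18) and Omg (-0.22, SE 0.26) of the third, all log2 fold changes with an edgeR adjusted p above 0.05.

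Opalin and Ermn, markers of mature oligodendrocytes, reached at most 0.432 and 1.86 CPM in any mouse, and Gjb1, a gap junction gene of these cells, had 0 counts in all 11. Myrf, the factor that switches on the myelin program, ranged from 0 to 3.56 CPM in naïve mice and was highest in withdrawn mouse 2 at 9.96 CPM, with an edgeR log2 fold change of 0.89 (SE 1.51) that was -1.15 without that mouse.

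Bmp4, Cldn11 and Aspa were much higher in most withdrawn mice. Bmp4, a secreted factor made by newly committed oligodendrocytes among other cells, had at most 5.33 CPM in naïve mice and 41.6, 6.04, 34.4, 60.1 and 19.5 CPM in withdrawn mice 1 to 5, with no overlap of the groups. Its log2 fold change was 4.02 (SE 0.89, adjusted p = 0.129 by edgeR, 0.000229 by DESeq2). Cldn11, a tight junction protein of myelin and of other barriers, had at most 2.10 CPM in naïve mice and 48.0, 0, 16.1, 27.9 and 5.02 CPM in withdrawn mice 1 to 5 (fold change 5.09 on the log2 scale, SE 1.39, adjusted p = 0.262 by edgeR, 0.00847 by DESeq2). Aspa, the enzyme that cleaves N-acetylaspartate, had at most 0.641 CPM in naïve mice and 34.1, 0.112, 18.4, 40.1 and 12.5 CPM in withdrawn mice. It was below the edgeR filter and called by DESeq2 at a log2 fold change of 6.30. DESeq2 thus called Bmp4 and Gpr17 of the first list and Cldn11 and Aspa of the third, all higher, against 1.57% of the genes it tested. Without withdrawn mouse 2, edgeR called Bmp4 (4.27, adjusted p = 0.0262), Cldn11 (5.39, 0.0385) and Aspa (6.48, 0.0037), against 1.06% of tested genes. Without the 3 mice with a conflicting label, which leaves withdrawn mice 1 and 2, the edgeR log2 fold change was 3.56 for Bmp4 (adjusted p = 0.713) and 5.38 for Cldn11 (adjusted p = 0.691). DESeq2 without these mice, a fit added after seeing the data, called 0.929% of the genes it tested and none of the 9 lineage genes, and gave adjusted p values of 0.151 for Bmp4, 0.241 for Gpr17, 0.451 for Cldn11 and 0.0279 for Aspa, so that Aspa alone of these genes was called (log2 fold change 5.99).

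These 3 genes were high in withdrawn mice 1, 3, 4 and 5 and low in withdrawn mouse 2. The summed level of fibroblast markers was high and low in the same mice, though not every marker followed. The summed level of 8 fibroblast markers was 0.0677 to 73.1 CPM in naïve mice and 1318, 18.4, 672, 927 and 225 CPM in withdrawn mice 1 to 5, and 5 of the 6 tested were higher at an unadjusted p under 0.05. The summed level of 8 astrocyte markers ran from 80.0 to 292 CPM in naïve mice and was 705, 62.1, 508, 793 and 319 CPM in withdrawn mice 1 to 5. In withdrawn mouse 1 most of that sum was the connexins Gja1 and Gjb6, at 309 and 328 CPM, which were at 6.38 and 0 CPM in withdrawn mouse 2. Of 7 astrocyte markers tested, 3 had a positive and 4 a negative log2 fold change, with a median of -0.13. Aldoc ran from 34.9 to 86.8 CPM in withdrawn and 50.9 to 133 CPM in naïve mice. Gfap was at 0, 0.112, 0.420, 4.55 and 0.212 CPM in withdrawn mice 1 to 5 and at most 41.6 CPM in naïve mice. Aqp4 was at 0.144, 0, 0, 7.99 and 0.212 CPM in withdrawn mice 1 to 5 and at most 10.6 CPM in naïve mice. Of the fibroblast markers, withdrawn mouse 1 had all 8 over 3 counts, withdrawn mice 3 and 5 had 5, and withdrawn mouse 2 had 6, and the collagen genes Col1a1 and Col1a2 led in withdrawn mice 1, 3, 4 and 5. The summed level of 8 microglia markers was at most 25.5 CPM in naïve mice. In withdrawn mice 1 to 5 it was 40.6, 8.28, 39.1, 45.5 and 26.7 CPM. Of 3 microglia markers tested, 2 had a positive and 1 a negative log2 fold change. Anpep, a pericyte marker called by DESeq2, had at most 1.15 CPM in naïve mice. In withdrawn mice 1 to 5 Anpep was at 26.1, 0.448, 7.19, 23.0 and 6.08 CPM. Of 7 pericyte markers tested, 4 had a positive and 3 a negative log2 fold change. The part of these cell types or their RNA in the values of Bmp4, Cldn11 and Aspa was not tested. In withdrawn mouse 1, where the fibroblast sum was highest, Mbp stood at 91.3 CPM and Olig1 and Mag at 0. In withdrawn mouse 4, the next highest, Mbp stood at 69.0, Olig1 at 0.984 and Mag at 2.58 CPM. In withdrawn mouse 3 these were 170, 0 and 0.327 CPM.

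**Figure D4:**
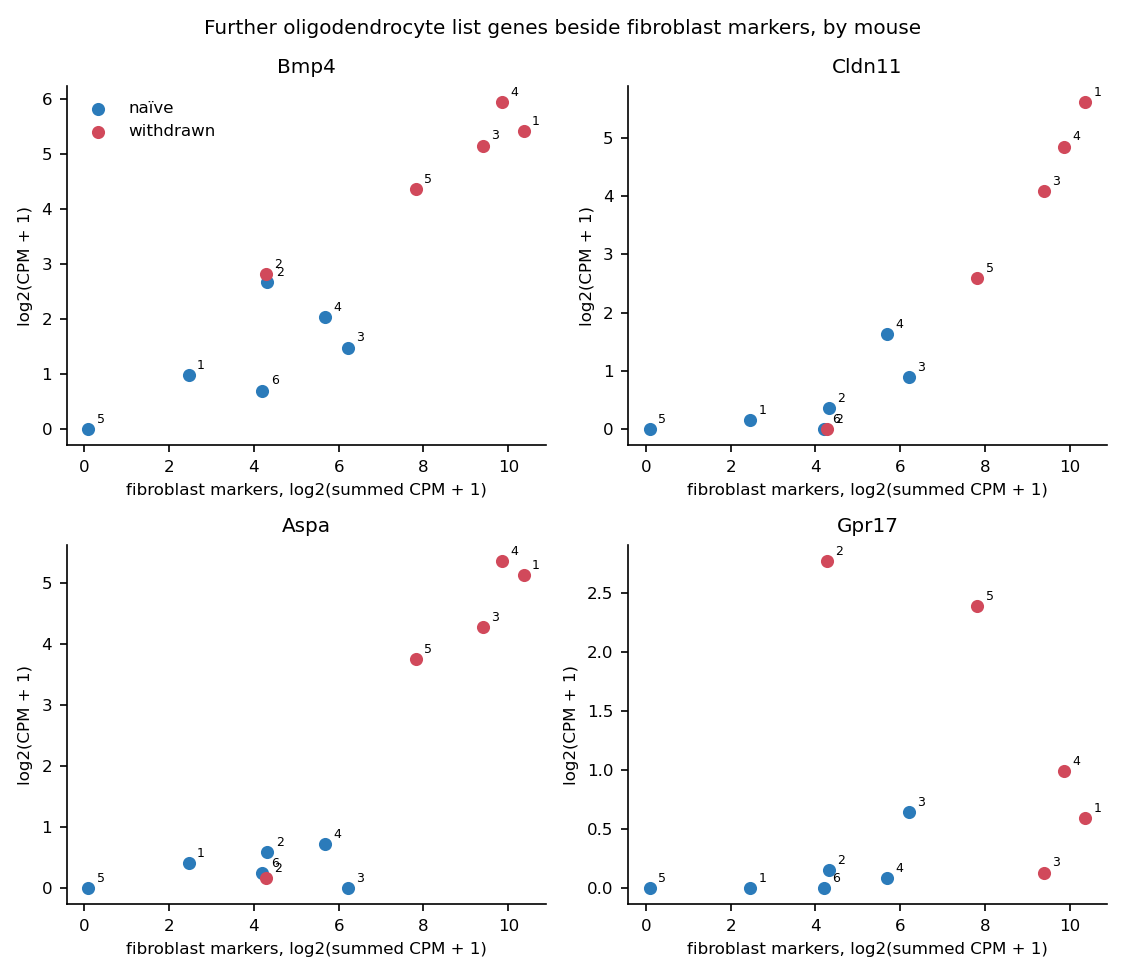
Level of Bmp4, Cldn11, Aspa and Gpr17 (y axis, log2 of CPM + 1) against the summed level of 8 fibroblast markers (x axis, log2 of CPM + 1), with 1 point per mouse labelled by its number and coloured by group. For Bmp4, Cldn11 and Aspa the withdrawn mice 1, 3, 4 and 5 lie at the upper right and withdrawn mouse 2 lies at the fibroblast level of the naïve mice, above them all for Bmp4 (6.04 against at most 5.33 CPM), whereas Gpr17 is highest in withdrawn mice 2 and 5.

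Gpr17, a receptor of committed precursors, was the exception among these. It had 0 to 0.562 CPM in naïve mice and 0.504, 5.82, 0.0934, 0.984 and 4.24 CPM in withdrawn mice 1 to 5, so that its high mice were withdrawn mice 2 and 5, which were also the 2 highest withdrawn mice for Olig1. DESeq2 gave it a log2 fold change of 4.34 (adjusted p = 0.0490), and it was below the edgeR filter.

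The 5 gene pairs given here were picked after their values were seen and were compared across all 11 mice. Their permutation p values, and the adjustment over these 5 pairs alone, do not cover that choice. Cspg4 and Pdgfra had a Pearson r of 0.893 (permutation p = 0.00263, Benjamini-Hochberg adjusted 0.0131) and a Spearman rho of 0.726 (permutation p = 0.0144, adjusted 0.0721), but r was 0.408 without the 2 mice at 0, on which the relation rests. Mbp and Mobp (r = 0.348, permutation p = 0.295, adjusted 0.369), Mbp and Cnp (r = 0.250, permutation p = 0.452) and Mobp and Cnp (r = -0.355, permutation p = 0.287) were not related past the threshold. Pdgfrb, a pericyte receptor, and Cspg4 had r = 0.594 (permutation p = 0.0525, adjusted 0.131). Without the 2 mice farthest from the median of the first gene of each pair, r was 0.626 for Mbp and Mobp, -0.287 for Mbp and Cnp, -0.324 for Mobp and Cnp, and 0.279 for Cspg4 and Pdgfrb. Over the same mice the genes whose profile was most like the averaged myelin profile (mean z score of the 4 tested genes) were Atg13 (r = 0.924), Zfyve28 (0.834), Sytl1 (0.824), Rassf5 (0.822) and Diras1 (0.817) among 17087 genes ranked, where the 4 myelin genes themselves had r of 0.348 to 0.675 with it. Those most like the averaged profile of Olig1 and Cspg4 included Map4k4 (0.927), Gm37629 (0.926), Nek10 (0.919) and Zfp59 (0.913). Olig1 and Cspg4 themselves each had r of 0.585 with that profile, so it follows neither gene closely. These are descriptions over 11 mice, whose libraries differ in depth.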

How the data were processed

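RNA was sequenced from FACS-sorted mPFC CRF1+ neurons of single mice, 6 naïve and 5 withdrawn. Per the paper's methods, the authors removed adapters with cutadapt, aligned to GRCm38 (Ensembl) using STAR, and summed reads over genes in HTSeq. What the authors deposited are raw counts, 1 table per mouse, neither normalized nor pooled. The strand setting is not given in the sources used here. Symbols, exons and gene positions were taken from GENCODE on GRCm38, and start regions from RefSeq.

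Mice were grouped by title and treatment. The 9 genes and all lists were chosen with earlier results of these data known, and named genes by the rule that all 9 members are described, with the 3 most abundant and any called genes of each further list, Pdgfra, Gpr17 and Myrf, and the genes most like each profile (up to 5). Some genes that this rule names are not reported here. Withdrawn and naïve mice were compared with edgeR 4.0.16 in R 4.3.3 (TMM, filterByExpr by group with a minimum count of 10 and a minimum total of 15, quasi-likelihood test, Benjamini-Hochberg adjustment). The standard error is the fold change divided by the square root of F, and the 95% interval uses the fit's degrees of freedom. DESeq2 1.42.0 ran on all genes with a count. CPM used TMM-normalized library sizes, and log2 CPM a prior count of 2. Permutation tests were exact over all splits, and those of correlations drew 100000 resamples. Levels per kb used the union of exons. Libraries were checked for duplicates, and the smallest chi-square per degree of freedom within groups was 25.6. The edgeR and DESeq2 fits were tested on simulated data. The floor of 3 counts covers counting error only, as reads come from amplified cDNA.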

Additional observations from a re-analysis of the deposited data

Results flagged for a closer look

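Levels in single mice stood apart from the rest of their group for 3 genes, where the gap to the nearest mouse, as a share of the group's range in log2 CPM with a prior count of 2, passed Dixon's critical value. The 18 sets of 9 genes in 2 groups were tested, and chance gives about 0.9. Cspg4 was lowest in withdrawn mouse 2 at -2.80 on the log2 CPM scale, which is 0 counts. Mog was highest in withdrawn mouse 2 at 0.57 on that scale, which is 12 counts or 1.34 CPM. Mobp was lowest in naïve mouse 1 at 2.60 on that scale, which is 55 counts or 5.91 CPM.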

How the results depend on the processing

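The count of lineage genes called was 0 under every alternative run. The count with an unadjusted p under 0.05 was 0, and 1 with no filter on low counts and with DESeq2 (Sox10) and 1 without the conflicting-label mice and without withdrawn mouse 3 (Mbp), with 0 to 1 over fits that leave out each mouse. Over all tested genes, 1 was called (1 higher, 0 lower), against 137 with no filter (136 higher, 1 lower), 362 with DESeq2 (342 and 20), 0 without the conflicting-label mice (0 higher), 168 by DESeq2 without them (added after seeing the data), and 0 to 193 when each mouse was left out (0 to 192 higher, 0 to 1 lower), the most without withdrawn mouse 2 and 6 without naïve mouse 2. With the replicate number as a replicate block the count was 0 (0 higher). The numbers were not taken to pair the mice, since same-numbered mice are different animals and their deviations correlated by -0.20 to 0.18, over 0.1 in 1 of 5 pairs, with 1 of 5 mice matching its own number best. The cause of these differences was not tested.

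Signs turned as follows. Without the conflicting-label mice, the log2 fold change of Cspg4 was -1.20 and of Pdgfra -0.46, and the difference in mean log2 CPM was -0.34 for Olig2 and 0.72 for Mog. Mog's difference was 0.14 with a prior count of 0.5. When each mouse was left out, log2 fold changes ran from -0.39 to 0.34 for Cspg4, -0.060 to 0.99 for Mag and -1.15 to 1.21 for Myrf, and differences in mean log2 CPM from -0.11 to 0.28 for Olig2, -0.85 to 1.01 for Cspg4, -0.51 to 0.49 for Mog, -0.31 to 0.80 for Mag and -0.50 to 0.072 for Mobp. The precursor median ran from -0.14 to 1.15 and the myelin median from -0.36 to -0.15. Olig2, Sox10, Mog and Mag were at or under the floor of 3 counts in 10, 9, 6 and 5 of 11 mice, so that their differences rest on few counts.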
